A study of Mus musculus with 15 samples.

Results

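The 10 genes described here encode the adhesion molecules and plaque proteins of the desmosome and the plakin scaffold of the cornified envelope: Dsg2, Dsc2, Dsc3, Jup, Pkp1, Pkp2, Pkp3, Dsp, Ppl and Evpl. They were chosen by symbol, as probe sets annotated with that 1 gene symbol, and make up 10 of the 19938 genes measured. Each was read by 1 probe set, so no choice between probe sets was needed. The study grew mammary epithelial cells from female mice of 8 weeks of age, deleted p53, or p53 and Rb, with Cre recombinase from an adenovirus, and overexpressed MYC from a retrovirus. RNA of proliferating cells was hybridised to Affymetrix arrays, 1 array per sample and 3 arrays in each of 5 groups. The WT group carried none of the 3 alterations. The p53- group had lost p53 alone, the p53- Rb- group p53 and Rb, the p53- Myc+ group had lost p53 and overexpressed MYC, and the p53- Rb- Myc+ group had all 3 alterations. The 4 altered groups thus share the p53 deletion. The labels do not say whether WT cells received a control virus, whether the 3 samples in each group are different animals or cultures, or whether a group was 1 selected line. The p-values therefore measure the spread between these samples, which may be technical.

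Desmosomes are the spot junctions that tie the keratin filaments of neighbouring epithelial cells together. Their desmogleins and desmocollins, cadherins of the cell surface, bind those of the next cell, and plakoglobin (Jup) and the plakophilins join their tails to desmoplakin (Dsp), which holds the keratin filaments. Periplakin (Ppl) and envoplakin (Evpl) are relatives of desmoplakin that also associate with desmosomes and form an early scaffold of the cornified envelope, the crosslinked protein shell of differentiated keratinocytes. In the mammary gland, desmosomes join luminal and myoepithelial cells within and between their layers.

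Promoter windows were held for 2 of the 10 genes, Dsp and Jup, and these are shown because none was held for the others. The sequences are from RefSeq on GRCm38.p6, written 5′ to 3′ on the strand of the gene. The Dsp stretch is the 250 bases before the annotated start, chr13:38151044-38151293 on the plus strand. The Jup stretch, chr11:100397840-100398040 on the minus strand, holds the 201 bases of its window outside the annotated gene. Capitals mark GGGCGG, the core of the GC box bound by Sp family factors, or its reverse complement CCGCCC.
Dsp: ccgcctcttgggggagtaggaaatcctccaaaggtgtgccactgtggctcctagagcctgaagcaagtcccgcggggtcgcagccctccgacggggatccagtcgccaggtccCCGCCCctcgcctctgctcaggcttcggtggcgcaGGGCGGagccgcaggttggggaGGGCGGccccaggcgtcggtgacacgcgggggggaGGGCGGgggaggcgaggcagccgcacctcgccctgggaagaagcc
Jup: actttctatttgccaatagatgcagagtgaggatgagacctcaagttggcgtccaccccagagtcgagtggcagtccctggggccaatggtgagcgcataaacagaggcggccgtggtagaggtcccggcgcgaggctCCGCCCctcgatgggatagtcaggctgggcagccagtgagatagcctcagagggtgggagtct
Positions count within each window of 300 bases, 1 being the base after its first 250. The Dsp stretch held GGGCGG at -102, -80 and -45 and CCGCCC at -137, and the Jup stretch held CCGCCC at -112. In the Jup window position 1 lies inside the annotated gene, which begins where the printed stretch ends. The Jup window held a further GGGCGG at -42, beyond the printed stretch and inside the annotated gene. Over 32851 promoter windows of 300 bases, 35.7% held this motif on either strand. CACGTG, the E-box bound by MYC and MAX, was in neither window and in 7.15% of all windows. CACCTG, an E-box variant bound by SNAI and ZEB factors, was absent from the Jup window and occurred in the Dsp window as CAGGTG at 4, beyond the printed stretch. It was in 20.2% of all windows. Neither window held AACCGGTT, a grainyhead motif found in 0.146% of windows, or the E2F motifs TTTCCCGC, in 1.07%, and TTTGGCGC, in 0.514%. Both strands were searched for each motif, and a match describes the letters alone.

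Median intensities of the 15 arrays ran from 41.3 to 54.9, and the number of arrays limits the precision. Rb1 intensity averaged 161 on the p53- and 57.4 on the p53- Rb- arrays, but also 36.4 on the p53- Myc+ and 18.7 on the p53- Rb- Myc+ arrays, so it was low in the Myc+ arrays without the Rb- label too. The probe set of mouse Myc, for which it is not known whether it also detects the MYC transgene, averaged between 856 and 930 in the 3 groups without the Myc+ label, against 128 (p53- Myc+) and 96.3 (p53- Rb- Myc+). The p53 gene was not analysed here. The groups below are therefore groups as labelled. All 6 defining epithelial markers were low in the arrays labelled Myc+: Epcam averaged 1634 in p53- and 10.3 in p53- Myc+ arrays, Cdh1 1587 and 20.0, Krt8 3529 and 50.3, Krt18 4669 and 4.78, Krt5 1656 and 5.51, and Krt14 1762 and 9.95. The summed intensity of 10 epithelial markers ran from 18491 to 22172 in the 9 arrays without the Myc+ label, from 98.2 to 192 in p53- Myc+ and from 169 to 222 in p53- Rb- Myc+ arrays. Summed fibroblast markers ran from 9839 to 10690 on the WT arrays, 11469 to 11833 on the p53- arrays, 14660 to 17522 on the p53- Rb- arrays, 11191 to 11652 on the p53- Myc+ arrays and 9212 to 9693 on the p53- Rb- Myc+ arrays. Between p53- Myc+ and p53- arrays 20.2% of all genes fell and 13.1% rose. Summed leukocyte markers ran from 637 to 771 on the p53- arrays and from 310 to 320 on the p53- Myc+ arrays, and 4 of 9 fell and 0 rose between these groups. Cd14 fell most (328 and 24.3), while the defining marker Ptprc (43.1 and 31.6) did not pass. Summed endothelial markers ran from 443 to 547 and from 164 to 184 on the same arrays, and 5 of 8 fell and 0 rose, among them the defining markers Cdh5 (107 and 5.88) and Pecam1 (24.9 and 3.74). The label of mammary epithelial cells is thus not borne out by the epithelial markers in the 6 arrays labelled Myc+, and the part of all these markers in the results below was not tested. In bulk RNA, fewer cells of a type and less RNA per cell cannot be told apart.

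Most of the desmosome was close to the bottom of the intensity scale in the arrays labelled Myc+. For 8 of the 10 genes, Pkp2 and Evpl excepted, the 6 Myc+ arrays all lay below the 9 others; 11.5% of all genes showed this. Between p53- Myc+ and p53- arrays, 9 genes fell and 0 rose at an adjusted p under 0.05 (limma, 2-sided, Benjamini-Hochberg over all 19938 genes), where 20.2% of all genes fell and 13.1% rose. Between p53- Rb- Myc+ and p53- Rb- arrays, 9 again fell and 0 rose, where 18.7% of all genes fell and 17.6% rose. The median change of the 10 genes was -3.28 on the log2 scale in the first and -2.58 in the second of these comparisons, beside -0.09 and 0.12 over all genes. Fold changes are differences of log2(intensity + 16), so they understate the change of a gene whose level is low. On the intensity scale, the p53- Myc+ mean of the 8 genes was 1.77% (Dsp) to 6.68% (Ppl) of the p53- mean, while that of Pkp2 was 65.5% and that of Evpl 104%. No order is read among the 8 shares, since for the genes other than Jup values this low cannot be told from background. Jup averaged 48.1 in p53- Myc+ arrays, whose median intensities ran from 41.9 to 46.5. In p53- Rb- Myc+ arrays the 8 means stood at 2.44% (Pkp1) to 45.6% (Ppl) of those in p53- Rb- arrays, with Pkp2 at 57.3% and Evpl at 97.8%.

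**Figure D1:**
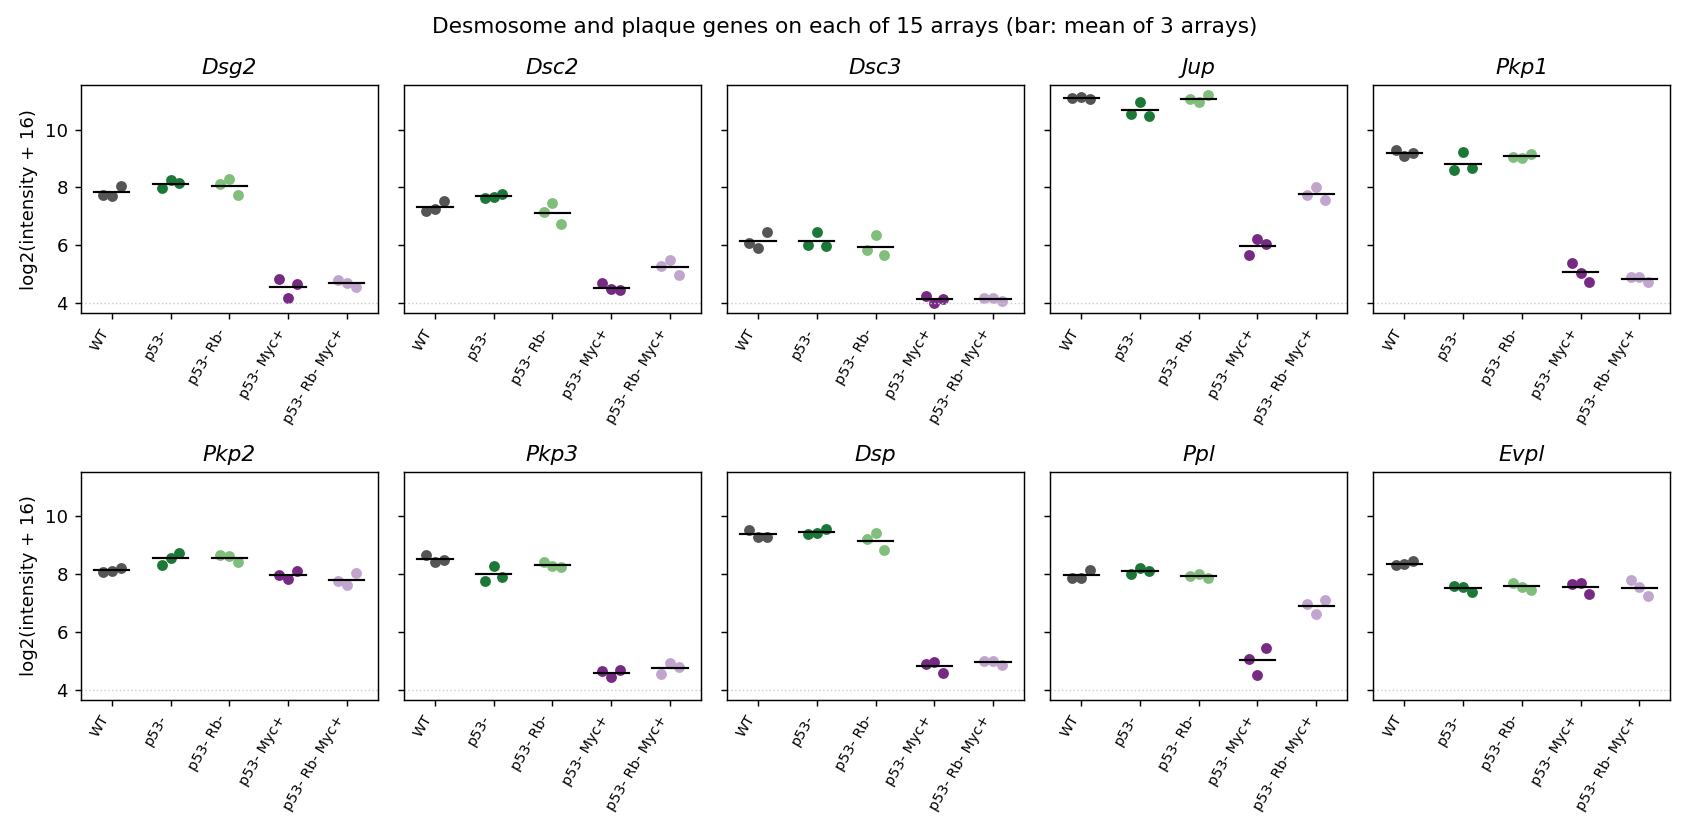
Each panel plots 1 gene as log2(intensity + 16) (vertical axis) on the 15 arrays, by group (horizontal axis); points are arrays, bars the mean of 3 arrays, and the dotted line at 4 is an intensity of 0. In 8 panels the 6 arrays labelled Myc+ sit below all others, while those of Pkp2 and Evpl overlap with them; levels of different genes are not comparable.

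The 3 desmosomal cadherins lie in 1 gene cluster on chromosome 18, in the order Dsc3, Dsc2, Dsg2 within a run of desmocollin and desmoglein genes. Dsg2 (probe set 10454172) is the desmoglein found in all tissues with desmosomes. Its intensity was 196, 190.5 and 252 on the WT arrays, 237, 291 and 266 on the p53- arrays, 264, 295 and 199 on the p53- Rb- arrays, 12.6, 2.13 and 9.38 on the p53- Myc+ arrays and 11.6, 9.82 and 7.71 on the p53- Rb- Myc+ arrays. The first 3 groups overlapped, as did the last pair, with a gap between them. Dsg2 fell by 3.57 ± 0.19 (SE) with the Myc+ label in p53- cells (adjusted p = 4.95e-13) and by 3.37 ± 0.19 in p53- Rb- cells (adjusted p = 1.45e-12). No neighbours in the order of its 5 group means differed except at that gap.

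Dsc2 (probe set 10457686), the widely expressed desmocollin, had intensities of 128, 137 and 171 on the WT arrays, 180.4, 189.7 and 200.4 on the p53- arrays, 128, 162 and 90.1 on the p53- Rb- arrays, 9.89, 6.15 and 5.80 on the p53- Myc+ arrays and 23.3, 28.6 and 15.5 on the p53- Rb- Myc+ arrays. All 3 p53- arrays were above the WT and the p53- Rb- arrays, and the p53- Rb- Myc+ arrays above the p53- Myc+ arrays. With the Myc+ label Dsc2 fell by 3.15 ± 0.19 in p53- cells (adjusted p = 4.80e-12) and by 1.87 ± 0.19 in p53- Rb- cells (adjusted p = 3.31e-08).

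Dsc3 (probe set 10457669), the desmocollin of basal cells of stratified epithelia, was near the bottom of the scale in every Myc+ array. Its intensity was 51.6, 44.0 and 72.4 on the WT arrays, 48.2, 72.7 and 47.4 on the p53- arrays, 40.8, 64.9 and 34.7 on the p53- Rb- arrays, 2.93, 0.00103 and 1.499 on the p53- Myc+ arrays and 1.85, 2.13 and 0.921 on the p53- Rb- Myc+ arrays. The groups overlapped on each side of the Myc+ label and not across it. With the Myc+ label it fell by 2.03 ± 0.19 in p53- cells (adjusted p = 1.28e-08). In p53- Rb- cells it fell by 1.80 ± 0.19 (adjusted p = 8.71e-08).

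Jup (probe set 10391103, chromosome 11) encodes plakoglobin, which binds cadherin tails in both desmosomes and adherens junctions. Its intensity was 2157, 2219 and 2107 on the WT arrays, 1477, 1989 and 1407 on the p53- arrays, 2101, 1965 and 2314 on the p53- Rb- arrays, 35.2, 59.1 and 50.04 on the p53- Myc+ arrays and 196, 243 and 171 on the p53- Rb- Myc+ arrays. The 3 p53- arrays lay below the WT arrays, and the p53- Rb- Myc+ arrays held a middle level, above every p53- Myc+ array and below all arrays without the Myc+ label. Jup fell by 4.68 ± 0.18 with the Myc+ label in p53- cells (adjusted p = 2.51e-15) and fell by 3.30 ± 0.18 in p53- Rb- cells (adjusted p = 1.10e-12). In the order of its group means, WT, p53- Rb- and p53- did not differ between neighbours, p53- Rb- Myc+ differed from p53- (adjusted p = 1.18e-11), and p53- Myc+ from p53- Rb- Myc+ (adjusted p = 3.36e-07).

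Among the plakophilins, the armadillo proteins that cluster desmosomal cadherins and recruit desmoplakin, Pkp1 and Pkp3 followed the main pattern and Pkp2 did not. Pkp1 (probe set 10358124, chromosome 1), abundant in stratified epithelia, had intensities of 614, 534 and 565 on the WT arrays, 369, 579.6 and 392 on the p53- arrays, 521, 501 and 549 on the p53- Rb- arrays, 26.2, 17.0 and 10.7 on the p53- Myc+ arrays and 14.1, 13.6 and 10.7 on the p53- Rb- Myc+ arrays. It fell by 3.77 ± 0.18 (adjusted p = 1.50e-13) and by 4.23 ± 0.18 (adjusted p = 2.43e-14) with the Myc+ label in p53- and p53- Rb- cells. Within each side of the gap its arrays overlapped, p53- replicate 2 standing among the WT values and the other p53- arrays below them. Pkp3 (probe set 10558795, chromosome 7), found in the desmosomes of nearly all epithelia, had intensities of 387, 327 and 347 on the WT arrays, 204, 296 and 224 on the p53- arrays, 323, 297 and 286 on the p53- Rb- arrays, 8.93, 5.89 and 9.44 on the p53- Myc+ arrays and 7.41, 14.3 and 11.6 on the p53- Rb- Myc+ arrays. It fell by 3.40 ± 0.16 (adjusted p = 1.30e-13) and by 3.56 ± 0.16 (adjusted p = 6.63e-14). The p53- arrays of Pkp3 were all below the WT arrays, by far less than the Myc+ arrays were.

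Pkp2 (probe set 10433887, chromosome 16) is the plakophilin of simple epithelia and of the heart. Its intensity was 257, 259 and 278 on the WT arrays, 307, 359 and 414 on the p53- arrays, 387, 382 and 324 on the p53- Rb- arrays, 237, 211 and 259 on the p53- Myc+ arrays and 199, 182 and 245 on the p53- Rb- Myc+ arrays. The 6 Myc+ arrays thus lay below all p53- and p53- Rb- arrays, while 1 of them was within the WT range. Pkp2 fell by 0.57 ± 0.16 in p53- cells (adjusted p = 0.00798) and by 0.76 ± 0.16 in p53- Rb- cells (adjusted p = 0.000677). The call in p53- cells was lost with each array centred on its median (-0.37, adjusted p = 0.0945) and without p53- replicate 3 (-0.47, adjusted p = 0.0571). Against WT the difference of Pkp2 was -0.16 in p53- Myc+ arrays (95% interval -0.50 to 0.18, adjusted p = 0.456) and -0.33 in p53- Rb- Myc+ arrays (-0.67 to 0.01, adjusted p = 0.105). Without p53- Rb- Myc+ replicate 3 the latter was -0.44 and passed (adjusted p = 0.0484). None of the neighbours in the order of its 5 group means differed.

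The 3 plakins had 3 different patterns over the groups. Dsp (probe set 10404649, chromosome 13), the obligate link to keratin filaments, had intensities of 731, 603 and 615 on the WT arrays, 655, 667 and 734 on the p53- arrays, 584, 668 and 439 on the p53- Rb- arrays, 13.6, 14.96 and 7.92 on the p53- Myc+ arrays and 16.2, 16.1 and 12.8 on the p53- Rb- Myc+ arrays. The arrays overlapped on each side of the Myc+ label, and the lowest without it was far above the highest with it. Dsp fell by 4.65 ± 0.17 (adjusted p = 1.08e-15) in p53- and by 4.20 ± 0.17 (adjusted p = 7.68e-15) in p53- Rb- cells.

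Ppl (probe set 10437516, chromosome 16) had intensities of 217, 220.1 and 266 on the WT arrays, 239, 283 and 260.4 on the p53- arrays, 228, 239 and 218 on the p53- Rb- arrays, 17.8, 6.93 and 27.6 on the p53- Myc+ arrays and 108, 82.3 and 123 on the p53- Rb- Myc+ arrays. As for Jup, the p53- Rb- Myc+ arrays stood between the p53- Myc+ arrays and the rest. Ppl fell by 3.10 ± 0.20 in p53- cells (adjusted p = 1.47e-11) and by 1.04 ± 0.20 in p53- Rb- cells (adjusted p = 0.000197).

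Evpl (probe set 10393197, chromosome 11), the partner of periplakin in the envelope scaffold, showed another order. Its intensity was 300.1, 313 and 331 on the WT arrays, 176, 174 and 152 on the p53- arrays, 193, 171 and 161 on the p53- Rb- arrays, 186, 192 and 145 on the p53- Myc+ arrays and 208, 171 and 135 on the p53- Rb- Myc+ arrays. The WT arrays were above all 12 arrays of the altered groups, which overlapped with one another. Evpl differed by 0.05 between p53- Myc+ and p53- arrays (95% interval -0.30 to 0.40, adjusted p = 0.862) and by -0.05 between p53- Rb- Myc+ and p53- Rb- arrays (-0.39 to 0.30, adjusted p = 0.858). It was lower than in WT in p53- Rb- (by -0.79, adjusted p = 0.00282), p53- Myc+ (by -0.80, adjusted p = 0.000378) and p53- Rb- Myc+ arrays (by -0.84, adjusted p = 0.000262), comparisons in which 3.75%, 20.9% and 19.1% of all genes fell and which share the WT arrays.

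**Figure D2:**
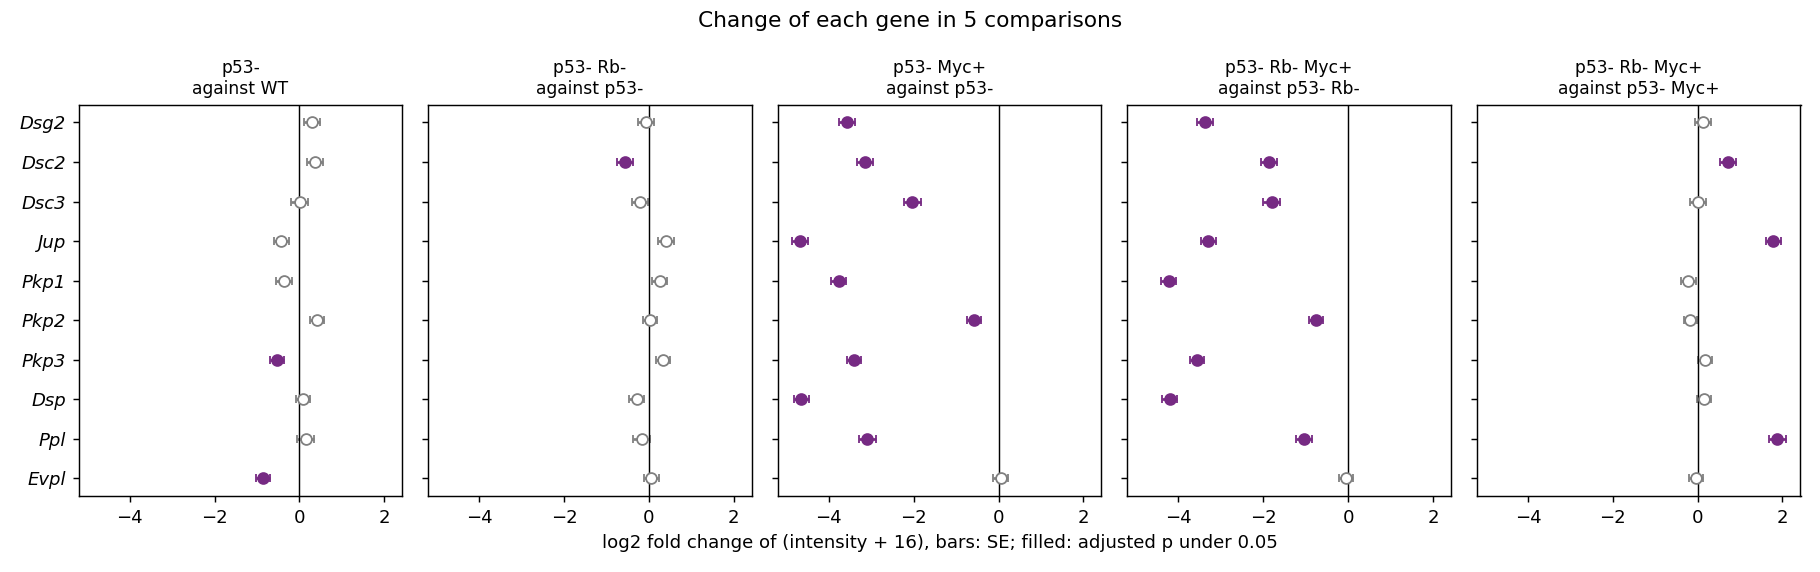
Points are the log2 fold change of (intensity + 16) of each gene (horizontal axis) in 5 comparisons of groups of 3 arrays, bars the SE, and filled points have an adjusted p under 0.05. With the Myc+ label 9 of 10 genes fell in p53- and in p53- Rb- cells, Evpl being near 0 in both, and with the Rb- label 3 genes rose among the Myc+ arrays.

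The change with the Myc+ label was also compared within each protein family, over the 12 arrays of the 4 altered groups and averaged over both Rb labels. This comparison was chosen after the values were seen, covers 9 pairs and used exact 2-sided permutation of the Myc+ label within each Rb label, where 0.005 is the smallest p possible. Its p-values are therefore no support beyond the values that prompted it. The change of Dsp minus that of Evpl was -4.43, Dsp minus Ppl was -2.36 and Ppl minus Evpl was -2.07. Dsp minus Ppl was -1.55 without and -3.17 with the Rb- label. Dsp (12.2) and Ppl (17.4) were both near the bottom of the scale in p53- Myc+ arrays, so no order is read between them there. Each of these plakin pairs reached an exact permutation p of 0.005 (adjusted over the 9 pairs, 0.00563). Among the plakophilins, the change of Pkp1 minus that of Pkp2 was -3.33 and Pkp2 minus Pkp3 was 2.81, each with exact permutation p = 0.005. Pkp1 minus Pkp3 was -0.52, and -0.22 with 1 added before the logarithm. The 3 cadherins, and Pkp1 with Pkp3, were all near the bottom of the scale in the Myc+ arrays, where the size of a change follows the starting level and the constant added, so no order is read among them. Dsc2 minus Dsc3, for example, was -0.59 and took the other sign, 0.93, with 1 added.

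Within the Myc+ arrays, 3 of the 10 genes were higher with the Rb- label: Ppl, Jup and Dsc2. Between p53- Rb- Myc+ and p53- Myc+ arrays 3 genes rose and 0 fell, where 3.29% of all genes rose and 1.4% fell. The median change of the 10 was 0.13, beside 0.05 over all genes. Ppl rose by 1.88 ± 0.20 (adjusted p = 5.48e-07), its mean going from 17.4 ± 10.3 to 104 ± 20.5 (SD, n = 3). Jup rose by 1.78 ± 0.18 (adjusted p = 3.36e-07), from 48.1 ± 12.04 to 204 ± 36.5. Dsc2 rose by 0.71 ± 0.19 (adjusted p = 0.0259), from 7.28 ± 2.27 to 22.5 ± 6.62. For each of these 3 genes all p53- Rb- Myc+ arrays were above all p53- Myc+ arrays, as was the case for 12.8% of all genes. The call of Dsc2 was lost with 64 added (0.28, adjusted p = 0.268), with quantile normalization (0.59, adjusted p = 0.0515), and without p53- Myc+ replicate 2 (adjusted p = 0.0854) or 3 (0.0838) or p53- Rb- Myc+ replicate 1 (0.0943) or 2 (0.162). The calls of Ppl and Jup passed in all 27 alternatives. The other 7 genes ranged from -0.21 (Pkp1, 95% interval -0.60 to 0.17) to 0.16 (Pkp3, -0.18 to 0.51), with Pkp2 at -0.17, Evpl at -0.04, Dsc3 at 0.02, Dsg2 at 0.12 and Dsp at 0.15, and adjusted p from 0.666 to 0.985. Their arrays overlapped between these groups.

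Without the Myc+ label, none of these 3 genes passed as a rise with the Rb- label, although Jup did under other settings. Between p53- Rb- and p53- arrays 1 gene fell and 0 rose, where 10.4% of all genes fell and 9.36% rose. Dsc2 fell by 0.56 ± 0.19 (adjusted p = 0.0380), from 190.2 ± 9.99 to 127 ± 36.0. Its call was lost with 1 added (adjusted p = 0.128), with each array centred (0.0521), with the replicate number as a block in a fit of these groups alone (0.0788), and without p53- replicate 1 (0.0740), 2 (0.0599) or 3 (0.128) or p53- Rb- replicate 1 (0.0782) or 3 (0.239). Ppl differed by -0.18 (95% interval -0.58 to 0.23, adjusted p = 0.559) and Jup by 0.40 (0.03 to 0.77, adjusted p = 0.122). Jup passed as a rise with 64 added (0.39, adjusted p = 0.0379), with array weights (0.47, adjusted p = 0.00585) and without p53- replicate 2 (0.55, adjusted p = 0.0380). Pkp3 (0.32, adjusted p = 0.179) passed with array weights (0.46, adjusted p = 0.00478) and without p53- replicate 2 (0.47, adjusted p = 0.0492). Pkp1 (0.25, adjusted p = 0.363) passed with array weights (0.35, adjusted p = 0.0404). The other 5 were Dsp (-0.29), Dsc3 (-0.21), Dsg2 (-0.08), Pkp2 (0.02) and Evpl (0.06), with adjusted p from 0.235 to 0.940. The difference between both Rb comparisons, tested in the same fit, was 2.06 ± 0.28 for Ppl (adjusted p = 2.98e-05), 1.38 ± 0.25 for Jup (adjusted p = 0.000847) and 1.28 ± 0.26 for Dsc2 (adjusted p = 0.00244). These were the 3 of 10 genes with a higher change, and 0 had a lower one, where 8.78% of all genes had a higher and 4.86% a lower change. The other 7 ranged from -0.46 (Pkp1, adjusted p = 0.252) to 0.44 (Dsp, adjusted p = 0.236), with Pkp2 at -0.19, Pkp3 at -0.16, Evpl at -0.09, Dsg2 at 0.20 and Dsc3 at 0.23. Low intensities in both Myc+ groups limit this for Pkp1, Dsp, Pkp3, Dsg2 and Dsc3. The difference of Dsc2 has the same limit, as its Myc+ means were 7.28 without the Rb- label and 22.5 with it. At such levels a fall like the 0.56 seen without the Myc+ label could hardly be measured.

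**Figure D3:**
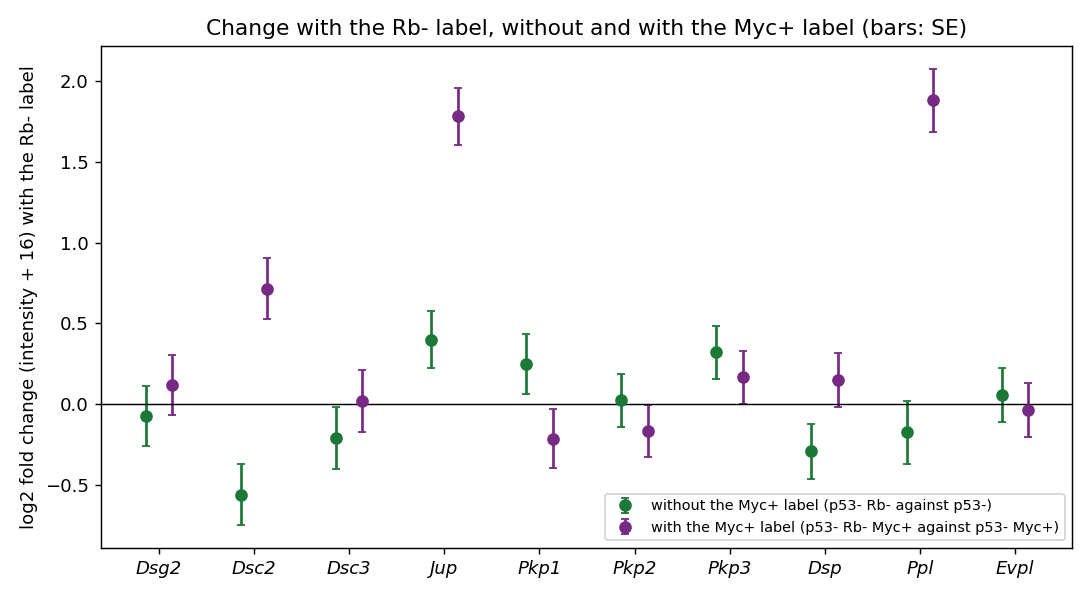
For each gene, the log2 fold change of (intensity + 16) with the Rb- label (vertical axis) is plotted without (green) and with (purple) the Myc+ label; bars are SE of groups of 3 arrays. The change with the Rb- label is higher with the Myc+ label than without it for Ppl, Jup and Dsc2, by 2.06, 1.38 and 1.28. The difference of the other 7 did not pass.

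With the p53- label alone, Evpl and Pkp3 were lower than in WT. Between p53- and WT arrays 2 genes fell and 0 rose, where 9.72% of all genes fell and 19.3% rose. Evpl fell by 0.85 ± 0.17 (adjusted p = 0.000705), from 315 ± 15.7 to 167 ± 13.3, and passed in all 27 alternatives. Pkp3 fell by 0.54 ± 0.16 (adjusted p = 0.0178), from 354 ± 30.1 to 241 ± 48.5. Its call was lost with 1 added (adjusted p = 0.0909), with the replicate number as a block in a fit of these groups alone (0.0728), and without WT replicate 1 (0.0677) or p53- replicate 1 (0.0975) or 3 (0.0762). Jup (-0.42, adjusted p = 0.0794), Pkp1 (-0.37, adjusted p = 0.140) and Pkp2 (0.41, adjusted p = 0.0606) did not pass. For Jup and Pkp1, p53- replicate 2 stood nearest to WT, and without it both passed (-0.58, adjusted p = 0.0247, and -0.56, adjusted p = 0.0255). Without p53- replicate 1, Pkp2 passed (0.52, adjusted p = 0.0432). All 3 passed with 64 added (adjusted p = 0.0214, 0.0488 and 0.0204) and with array weights (0.0170, 0.0244 and 0.0274). Jup also passed with each array centred (-0.52, adjusted p = 0.0311). With a trended, robust prior Jup (0.0398) and Pkp2 (0.0443) passed, as did Pkp2 among genes at or above the median level (0.0331). Dsp, Dsg2, Dsc2, Dsc3 and Ppl lay between 0.00 and 0.36, with adjusted p of 0.153 or more. Summed leukocyte markers ran from 2182 to 2526 in WT and from 637 to 771 in p53- arrays, led by Lyz2 (289 and 17.9) and Cd14 (1566 and 328), while Ptprc, which defines leukocytes, was 19.6 and 43.1. Of 8 endothelial markers 2 fell and 1 rose, the defining Cdh5 (218 and 107) and Pecam1 (72.4 and 24.9) being those that fell. The part of both lists in the falls of Evpl and Pkp3 was not tested.

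Of the 6 other desmosome genes measured, 2 fell and 0 rose between p53- Myc+ and p53- arrays, beside 20.2% and 13.1% of all genes. Dsg3, the desmoglein of basal keratinocytes, fell by 4.31 ± 0.18 (adjusted p = 1.14e-14), from 405 ± 58.7 to 5.12 ± 1.16. Perp, a tetraspan membrane protein of desmosomes and a p53 target, fell by 5.09 ± 0.15 (adjusted p = 2.03e-17), from 753 ± 5.33 to 6.64 ± 2.48. Perp averaged 775 in WT and 753 in p53- arrays, a difference that did not pass. Pkp4, a relative of the plakophilins found at several kinds of junction, was 459 ± 47.7 and 422 ± 59.0 (-0.12, adjusted p = 0.652). It was the 1 gene of the list that rose from WT to p53- arrays (0.66), where 19.3% of all genes rose. Dsg1b, Dsg1c and Dsg4 averaged under 20 in all 5 groups, so a fall could not be measured. In p53- Rb- Myc+ against p53- Myc+ arrays 0 of the 6 passed, where 3.29% of all genes rose and 1.4% fell.

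Of 8 genes flanking the desmosomal cadherin cluster on chromosome 18, 1 fell and 1 rose between p53- Myc+ and p53- arrays. Of all genes, 20.2% fell and 13.1% rose. Kctd1 fell by 1.11 ± 0.18 (adjusted p = 2.60e-05) and B4galt6, a galactosyltransferase gene near Dsg2, rose by 1.06 ± 0.19 (adjusted p = 8.38e-05). Cdh2, the N-cadherin gene on the Dsc3 side, was 863 in p53- and 684 in p53- Myc+ arrays (-0.34, adjusted p = 0.150).

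Most measured keratins, the filament proteins that Dsp holds, and most genes of the neighbouring junctions fell as well. Of 11 keratins 10 fell between p53- Myc+ and p53- arrays, with a median of -5.78. Krt18 fell by 7.85 ± 0.17 (adjusted p = 4.10e-19) and Krt5 by 6.30 ± 0.18 (adjusted p = 1.91e-17), and Krt15 was the 1 keratin that did not pass. Of 11 adherens junction genes 10 fell, with a median of -1.39. E-cadherin (Cdh1) fell by 5.48 ± 0.16 (adjusted p = 2.85e-17) and the actin linker Ctnna1 by 1.66 ± 0.17 (adjusted p = 6.53e-08). Of 10 hemidesmosome and other plakin genes 9 fell, with a median of -2.50, among them Itgb4, the hemidesmosomal integrin subunit (-4.67 ± 0.17, adjusted p = 1.45e-15). Of 21 cornified envelope genes 11 fell and 1 rose, with a median of -0.84. Sprr1a, a small proline-rich envelope precursor, fell by 4.85 ± 0.21 (adjusted p = 1.67e-14) and involucrin (Ivl) by 3.68 ± 0.21 (adjusted p = 2.48e-12). The median over all genes was -0.09 in this comparison, in which 20.2% of them fell and 13.1% rose.

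With the Rb- label among Myc+ arrays, most genes of these lists did not pass. Of the 21 cornified envelope genes 4 rose and 0 fell, beside 3.29% and 1.4% of all genes. Sbsn, a secreted protein of the upper epidermis, rose by 2.97 ± 0.18 (adjusted p = 9.79e-11) and Sprr1a by 2.56 ± 0.21 (adjusted p = 1.02e-08). Of the 11 keratins 4 rose and 0 fell, led by Krt19 (2.47 ± 0.15, adjusted p = 9.79e-11), a keratin of simple epithelia. Of the 10 hemidesmosome and other plakin genes 1 rose, Itga6 (1.57 ± 0.17, adjusted p = 1.49e-06), and of the 11 adherens junction genes 0 passed. In the same comparison 6 of 14 fibroblast markers fell and 0 rose, and 1 of 10 epithelial markers rose, Krt18, which the keratin list also holds. From WT to p53- arrays, where Evpl and Pkp3 fell, 9 of the 21 cornified envelope genes fell and 0 rose, beside 9.72% and 19.3% of all genes. Among them were Sprr1b (-1.75 ± 0.17, adjusted p = 3.72e-07), Cnfn (-2.07 ± 0.23, adjusted p = 1.82e-06) and the transglutaminase gene Tgm1 (-1.43 ± 0.19, adjusted p = 1.83e-05), whose product crosslinks the envelope.

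Transcription factors known to act on epithelial junction genes moved in both directions. Of 16, 10 fell and 4 rose between p53- Myc+ and p53- arrays, beside 20.2% and 13.1% of all genes. The falls were those of Ehf (-3.46), Grhl2 (-3.28), Trp63 (-3.02), Elf3 (-2.50), Grhl3 (-2.42), Klf4 (-2.13), Klf5 (-1.63), Ovol1 (-1.24), Ovol2 (-0.98) and Grhl1 (-0.81), factors of epithelial identity. Twist2 (2.58), Zeb2 (1.24), Twist1 (1.22) and Snai1 (1.21), known as repressors of epithelial genes, rose. Snai2 (0.16, adjusted p = 0.532) and Zeb1 (0.04, adjusted p = 0.908) did not pass. Between p53- Rb- Myc+ and p53- Myc+ arrays 2 rose and 0 fell, beside 3.29% and 1.4% of all genes. The 2 were Klf5 (1.55 ± 0.16) and Zeb1 (0.66). Klf5 intensities were 682, 629 and 656 on the p53- arrays, 488, 484 and 469 on the p53- Rb- arrays, 209, 174 and 226 on the p53- Myc+ arrays and 538, 651 and 689 on the p53- Rb- Myc+ arrays. Its p53- Rb- Myc+ arrays were thus above all p53- Myc+ arrays and overlapped with the p53- arrays. The difference of both Rb comparisons was 1.99 ± 0.22 for Klf5 (adjusted p = 2.86e-06).

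**Figure D4:**
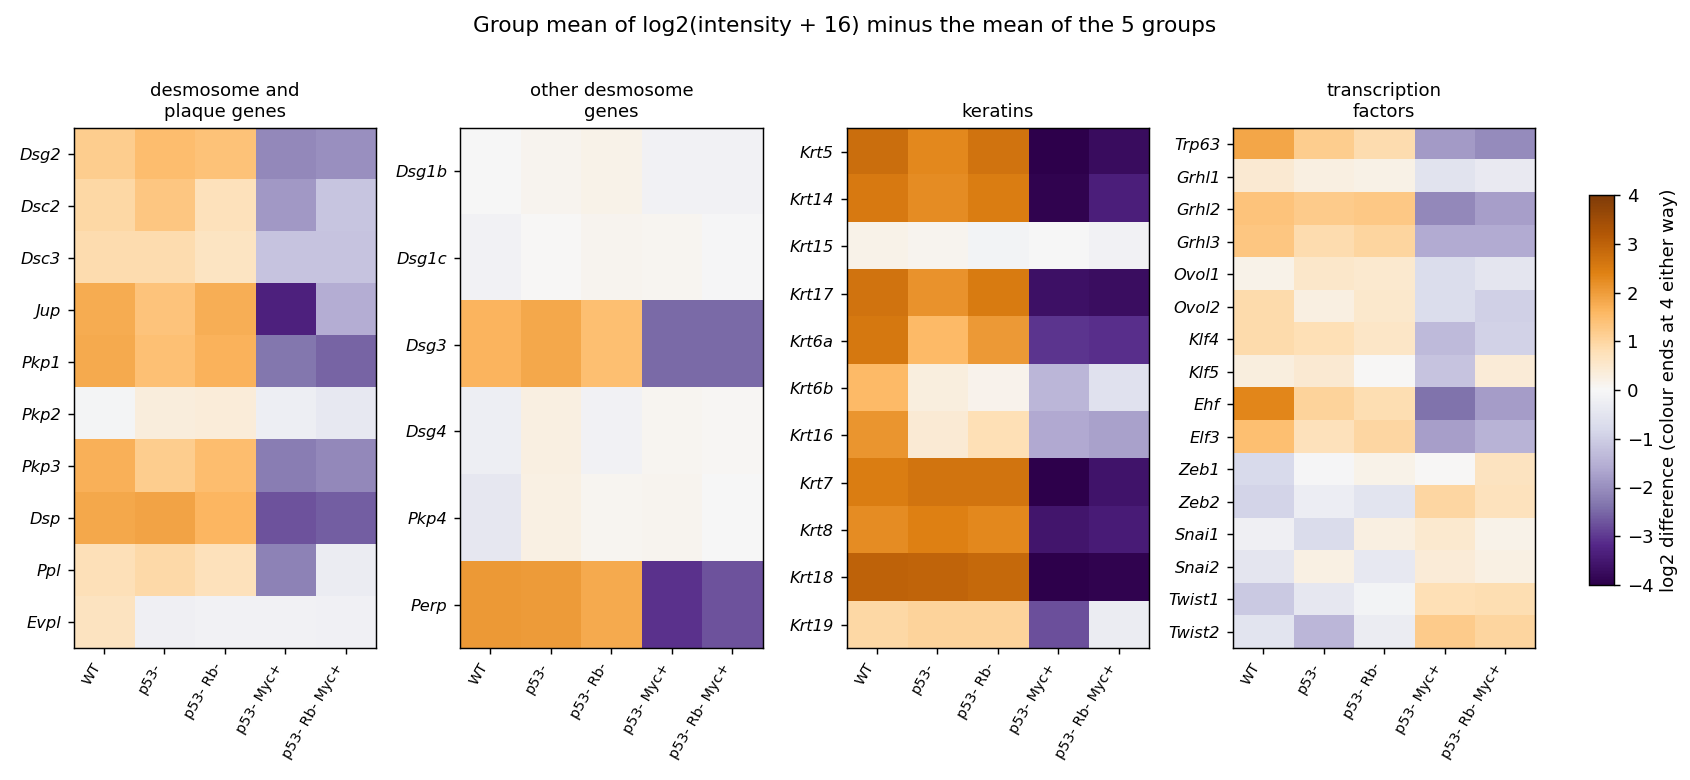
Colours give the group mean of log2(intensity + 16) minus the mean of the 5 groups (scale bar, ending at 4 either way) for the 10 genes, other desmosome genes, keratins and transcription factors; each cell is a mean of 3 arrays. Columns labelled Myc+ are low for most junction genes and keratins, near 0 for Pkp2, Evpl and Pkp4, and high for Zeb2 and Twist2.

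Among themselves, the patterns over the 5 groups were nearest between Pkp1 and Pkp3, with a root mean square difference of 0.27 in centred log2 group means, Dsp and Pkp1 (0.28), and Dsg2 and Pkp3 (0.29). Evpl (1.34) and Pkp2 (1.19) were farthest from the median pattern of the 10. Outside the 10, over 9960 genes of at least median level, the patterns nearest to that median were those of Depdc7 (0.072), Card10 (0.089), Rbm47 (0.10), Marveld2 (0.12), Epha2 (0.12) and Sft2d2 (0.13). Depdc7, for example, averaged 222 on the WT arrays, 259 on the p53- arrays, 249.5 on the p53- Rb- arrays, 11.5 on the p53- Myc+ arrays and 26.5 on the p53- Rb- Myc+ arrays. These are descriptions over 5 group means.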

How the data were processed

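RNA of cultured mammary epithelial cells was measured on 15 Affymetrix arrays, 1 per sample, in the 5 groups of 3 that the labels name. Per the submitters' processing notes, Affymetrix Expression Console 1.1 was used to make the probe set intensities that the authors deposited. How these were summarised, scaled or centred is not given in the sources used here. They held no negative values and ran to 8348, so they were read as linear. No detection calls were used, so a low intensity cannot be told from background. The labels name no scan date or batch.

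Of 35556 probe sets, 21789 had 1 gene symbol in the platform annotation, 1621 had several and 12146 were not listed. The 21789 stand for 19938 genes, and where a gene had more than 1, the brightest on average was kept. With limma 3.58.1 (R 4.3.3; lmFit, then eBayes), 5 group means were fitted to log2 of the value plus 16 over all 15 arrays, leaving 10 residual degrees of freedom. The threshold was an adjusted p of 0.05 (Benjamini-Hochberg, separately for each comparison, across the 19938 genes), and only genes past it are said to rise or fall. Intervals are 95% intervals of that fit. The code was tested on simulated data.

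The 10 genes and the gene lists were chosen with earlier results of these data known. The text names all 10 in the 5 main comparisons and in the difference of both Rb comparisons, all measured other desmosome genes and transcription factors, up to 4 genes of any other list by smallest p, Rb1 and Myc, and the 6 nearest patterns. Defining markers were added to these, and Cdh2 and Krt15 were named after their values were seen. Arrays with the same replicate number had correlated residuals in the p53- Rb- Myc+ and p53- Myc+ groups (r = 0.10, 0.19 and 0.38). Their numbers were treated as possible pairs, on the basis of the values and not of the labels. Between p53- Rb- and p53- arrays r reached -0.31 and -0.38, so an r of this size does not establish pairs. A replicate block was among the alternatives, and the calls given are those without it. In the other 4 main comparisons at least 1 number had an r below 0.1. Each result was computed again under those of 27 alternatives that kept its gene, and 15 of the 27 left out 1 array.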

Additional observations from a re-analysis of the deposited data

Results flagged for a closer look

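For 3 of the 10 genes the change with the Rb- label differed between cells with and without the Myc+ label, by the test of that difference itself. Of all genes, 8.78% had a higher and 4.86% a lower change by this test. The difference, with the Myc+ label minus without it, was 2.06 for Ppl, 1.38 for Jup and 1.28 for Dsc2 on the log2 scale (limma, adjusted p = 2.98e-05, 0.000847 and 0.00244). For Ppl and Jup, 3 of 3 p53- Rb- Myc+ arrays were above all p53- Myc+ arrays and below all arrays without the Myc+ label. For Dsc2, 3 of 3 p53- Rb- Myc+ arrays were above all p53- Myc+ arrays, and its lower level in p53- Rb- than in p53- arrays adds to the difference. Both Rb calls of Dsc2 were lost under several settings, and its intensities in the Myc+ arrays were low. Of all genes, 12.8% had every p53- Rb- Myc+ array above every p53- Myc+ array.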

How the results depend on the processing

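Over 6 comparisons, 10 genes and 27 alternatives, 1573 of 1614 values stayed on their side of the threshold, 21 lost the call and 20 gained one. The setting limited to genes at or above the median level holds no value for a gene below it. No called value changed sign, and 35 of the 1573, uncalled and between -0.16 and 0.11, did. Numbers of the 10 genes that changed between p53- and WT arrays depended on the setting. Against 2 that fell, 1 fell with 1 added and with the replicate block in a fit of these groups alone, and 4 fell with 64 added and with array weights. Against 0 that rose, 1 rose with 64 added, among genes at or above the median level, with array weights and with a trended, robust prior. Between p53- Rb- and p53- arrays, 0 in place of 1 fell with 1 added, with centred arrays and with that block, 1 rose with 64 added and 3 with array weights. Array weights raised the genes passing in that comparison from 3950 to 8518 and in the difference of both Rb comparisons from 2719 to 5404, where 1 of the 10, Pkp1, then had a lower change. The difference of Dsc2 minus Dsc3 in the Myc+ change turned from -0.59 to 0.93 with 1 added, an alternative chosen after seeing the data. The causes were not tested.

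Leaving out 1 array at a time gave 3470 (without p53- replicate 3) to 6094 genes passing between p53- and WT arrays, against 5780, with 0 to 1 of the 10 rising and 1 to 4 falling. Between p53- Rb- and p53- arrays it gave 2098 (without p53- Rb- replicate 3) to 4725 genes, with 0 to 2 of the 10 rising and 0 to 1 falling. That count was also low without p53- replicate 1 (2483) or 3 (2130). For the difference of both Rb comparisons it gave 1762 (without p53- replicate 3) to 3234 genes, and 1795 without p53- Rb- Myc+ replicate 2. In p53- Myc+ against p53- arrays 8 to 9 of the 10 fell, and in p53- Rb- Myc+ against p53- Myc+ arrays 2 to 3 rose.

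Between p53- Rb- Myc+ and p53- Myc+ arrays, the replicate block changed none of the calls of the 10 genes. With it 3 rose, among 931 genes passing with all arrays and 954 with these groups alone, against 935. The replicate numbers are not known to pair arrays in any comparison. Centring each array moved the median change of all genes from -0.09 to 0.11 in p53- Myc+ against p53- arrays and from 0.13 to -0.0032 in the difference of both Rb comparisons. The 8 genes whose Myc+ arrays all lay below the others were compared between p53- Myc+ and p53- arrays with 1, 16 or 64 added. Their changes lay between -5.75 and -4.01, -4.68 and -2.03, or -3.90 and -0.87. Signal near background limits these sizes and the order of the lowest values.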
